A study of Mus musculus with 6 samples.

Results

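The genes described here are the NFAT transcription factors and the phosphatase that activates them, 9 of the 18810 genes in the table. They are Nfatc1, Nfatc2, Nfatc3 and Nfatc4, the calcineurin subunits Ppp3ca, Ppp3cb and Ppp3r1, and the regulators of calcineurin Rcan1 and Rcan2. They were chosen by gene symbol, each symbol matched 1 Ensembl identifier, and all 9 were above the common low value that replaced faint signals in every library. RNA was sequenced from the atrioventricular canal of mouse embryos at E15.5, 3 Scx-/- and 3 Scx+/+, all labelled C57BL/6. The Scx-/- embryos are null for the basic helix-loop-helix factor Scleraxis, the controls are wild-type littermates, and the labels name no transgene or treatment in either group. By the methods, the dissected region held mitral, tricuspid and aortic valves, and cells were not sorted.

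NFAT proteins wait in the cytoplasm in a phosphorylated form. When calcium rises, calmodulin switches on calcineurin, a phosphatase made of a catalytic A subunit and a regulatory B subunit, which strips the phosphates and lets NFAT enter the nucleus, often to act together with AP-1 factors. Rcan proteins bind and restrain calcineurin, and the gene Rcan1 is itself switched on by NFAT. In the developing valve, Nfatc1 is a classical factor of the endocardium, the endothelial lining of the heart, and is required for the cushions to grow into leaflets, while calcineurin activates its protein without any need for more mRNA. The values below are mRNA levels and do not measure the phosphatase or the position of the factors in the cell.

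Levels are given as RPKM, read counts scaled to exon length and to depth, which can be compared between genes. Depth, recovered from RPKM and exon length, was 46429858 to 68570934 reads per library. The Scx values of 18.6 to 82.9 RPKM in Scx-/- and 26.0 to 58.3 RPKM in Scx+/+ overlapped and are for the whole gene, so they do not check the genotype labels. The paper reports a large decrease of an Scx exon in the Scx-/- samples, measured before sequencing. Exon-level values were not analysed here. Of the markers of valve and cushion mesenchyme 11 of 12 were listed, with Postn at 161 to 387 RPKM, and of those of endothelium and endocardium 14 of 14. Heart muscle was also present, as the 12 cardiomyocyte markers summed to 19596 to 28339 RPKM in Scx-/- and 17494 to 30752 RPKM in Scx+/+. Scx-/- replicate 3 and Scx+/+ replicate 2 deviated from their genotypes in the same direction, with a correlation of 0.32 across genes between their deviations from the genotype means. In Scx+/+ replicate 2 the 10 top genes took up 56.9% of all RPKM, and in the remaining libraries 30.7% to 43.9%. Scx-/- replicate 3, at 33.8%, lay within that range.

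The 9 genes covered a wide range of levels and, among these 9 only, fell into tiers by role. The inhibitors were the most abundant, with Rcan1 at 30.2 ± 4.65 RPKM and Rcan2 at 25.7 ± 5.39 RPKM (SD over the 6 libraries). The calcineurin B subunit Ppp3r1 and the catalytic subunit Ppp3ca followed at 20.0 ± 2.11 and 20.0 ± 1.85 RPKM, and the other catalytic subunit Ppp3cb was at 9.54 ± 1.67 RPKM. The factors were the least abundant, with Nfatc3 at 3.94 ± 0.827 RPKM, Nfatc1 at 0.887 ± 0.217 RPKM, Nfatc4 at 0.726 ± 0.281 RPKM and Nfatc2 at 0.462 ± 0.193 RPKM. Family members outside the 9 departed from these tiers. The inhibitor gene Rcan3 averaged 1.56 RPKM, below Nfatc3, and the catalytic subunit gene Ppp3cc averaged 4.36 RPKM, below Ppp3cb. Rcan1 was above 87.3% of all genes in the table and Nfatc2 above 13.6% of them.

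Neighbours in that order were compared within each library with an exact sign-flip permutation test, two-sided, over 8 neighbouring comparisons. The order was taken from the means of these same libraries, so the p-values describe how steadily it held and are not independent tests of it. Ppp3r1 and Ppp3ca could not be separated, with Ppp3r1 higher in 3 of 6 libraries (exact permutation p = 0.969). Rcan1 was above Rcan2 in 5 of 6 libraries (exact permutation p = 0.0625, adjusted p = 0.0833), and Nfatc1 was above Nfatc4 in 5 of 6 (exact permutation p = 0.125, adjusted p = 0.143). The other 5 neighbours kept their order in 6 of 6 libraries, at the smallest exact permutation p that 6 libraries allow, 0.03125, with an adjusted p of 0.05. The steps without any overlap of the ranges were from Ppp3ca to Ppp3cb, 2.11-fold, from Ppp3cb to Nfatc3, 2.43-fold, and from Nfatc3 to Nfatc1, 4.47-fold.

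**Figure D1:**
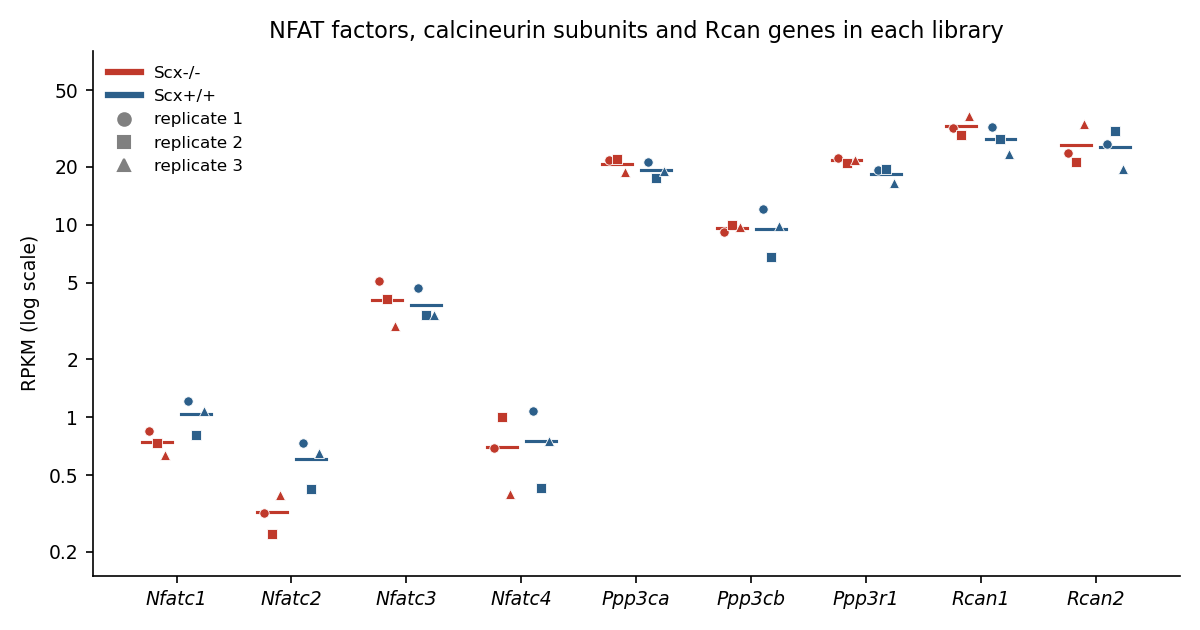
RPKM of the 9 genes in each library on a log scale, with Scx-/- in red and Scx+/+ in blue, a symbol for each replicate and a short line at the mean of each genotype. The Rcan genes lie between 19.4 and 36.9 RPKM, Nfatc1, Nfatc2 and Nfatc4 between 0.247 and 1.21 RPKM, and the genotypes are apart for Nfatc2 and Ppp3r1.

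Genotypes were compared with limma on log2(RPKM + 0.1) over all genes of the table, and the threshold of the study, an unadjusted p below 0.05, defined a call. Limma called none of the 9 genes, where 3.89% of all genes were, and the 9 adjusted p-values from limma ran from 0.967 to 0.996. Limma called 0 genes of the whole table at an adjusted p below 0.05, and 731 at the unadjusted threshold. The genotypes did not overlap for 2 of the 9 genes, Nfatc2 lower and Ppp3r1 higher in Scx-/-. Over all genes, 9.50% did not overlap, 2.31% lower and 7.19% higher. The median log2 fold change was 0.05 over the 9 genes and 0.10 over all genes, since the table as a whole leans towards Scx-/-. Directions below were therefore also read after centring, which set the median of all genes to 0 in each library, where the median of the 9 was -0.06 and limma again called none of them, against 3.43% of all genes. With 3 embryos in each genotype the exact permutation test cannot give a two-sided p below 0.1.

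**Figure D2:**
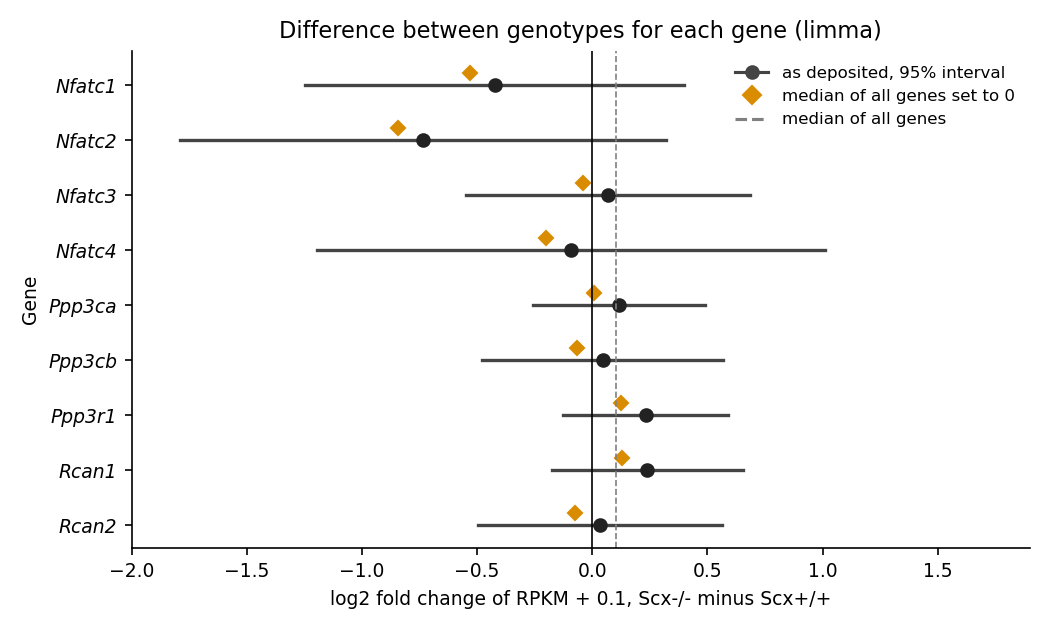
Difference between genotypes for each gene as the log2 fold change of RPKM + 0.1, with points and 95% intervals from limma for the deposited values and diamonds after the median of all genes was set to 0. Every interval includes 0, the lowest point is Nfatc2 at -0.73, and the dashed line marks the median of all genes at 0.10.

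Nfatc2 (ENSMUSG00000027544, chromosome 2 of mm9 from 168301910 to 168427157, minus strand) is an NFAT factor best known from T lymphocytes. It was 0.318, 0.247 and 0.394 RPKM in Scx-/- replicates 1 to 3 and 0.737, 0.424 and 0.653 RPKM in Scx+/+ replicates 1 to 3. All 3 Scx-/- values lay under the lowest Scx+/+ value, although Scx-/- replicate 3 and Scx+/+ replicate 2 were close. The means were 0.320 ± 0.0736 RPKM and 0.605 ± 0.162 RPKM (SD, n = 3), and the log2 fold change was -0.73 (standard error 0.47, 95% interval -1.79 to 0.32, adjusted p = 0.967 from limma), with an exact permutation p of 0.1. These levels rest on 175 to 474 reads per library, for which counting alone gives an error of 4.59% to 7.56%, while the SD within a genotype was 23.0% and 26.9% of the mean. The call on Nfatc2 depended on how the spread was estimated. With an intensity trend, which lets the spread vary with the level, Nfatc2 was not called. Limma without the trend gave an unadjusted p of 0.0312, where 1.27% of all genes were called lower. The per-gene test of the study, which does not pool the spread over genes, called it on log2 values, where 1.18% of all genes were called lower, and did not call it on RPKM, at an unadjusted p of 0.0504. Without Scx-/- replicate 3 and Scx+/+ replicate 2, a choice made after seeing the data, the log2 fold change was -1.06 and the unadjusted p from limma was 0.0256, where 2.38% of all genes were called lower. Those libraries are also the closest across genotypes for Nfatc2. The study had itself selected Nfatc2 from these libraries, so the values are not independent evidence of its direction.

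Markers of 3 other cell types were read beside Nfatc2. Of 10 markers of T and B lymphocytes, 0 were listed among the genes of the table. The macrophage markers, 10 of 11 symbols listed, summed to 33.9 to 56.5 RPKM in Scx-/- and 43.2 to 46.6 RPKM in Scx+/+. The symbol not listed, Adgre1, is a later name of Emr1, which was listed. The markers of Schwann cells and neurons were lower without overlap, at 2.40 to 3.98 RPKM against 4.13 to 5.27 RPKM, on 5 of 9 listed markers, with Sox10 and Th not among those listed. Their part in the Nfatc2 values was not tested. In whole tissue, fewer cells of a type and less RNA per cell cannot be told apart.

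The gene has more than 1 start, and its RPKM pools them, so the windows before both RefSeq starts are shown as the sequence behind the member with the widest separation. Each line gives the 250 bases upstream on the coding strand, matched without mismatch to mm9, with capitals for E-boxes (CANNTG, the class of site that Scleraxis binds) and for the NFAT core (GGAAA, read on both strands as GGAAA or TTTCC). The windows are chr2:168427158-168427407 and chr2:168415866-168416115 on the minus strand.
Nfatc2 distal start: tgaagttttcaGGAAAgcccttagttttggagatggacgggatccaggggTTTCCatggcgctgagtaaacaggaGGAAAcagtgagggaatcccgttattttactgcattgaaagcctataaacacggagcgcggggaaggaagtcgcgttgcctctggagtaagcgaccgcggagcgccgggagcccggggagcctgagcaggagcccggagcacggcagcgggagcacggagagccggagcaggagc
Nfatc2 proximal start: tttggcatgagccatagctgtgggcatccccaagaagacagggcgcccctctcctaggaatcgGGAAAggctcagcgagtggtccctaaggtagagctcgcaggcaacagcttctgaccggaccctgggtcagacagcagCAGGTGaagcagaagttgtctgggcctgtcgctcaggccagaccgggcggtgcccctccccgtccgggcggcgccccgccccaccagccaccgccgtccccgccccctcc
The distal window holds 3 NFAT cores and no E-box, and the proximal window 1 of each. Among 32536 RefSeq windows of this length, 66.2% hold an E-box, 55.7% an NFAT core and 6.41% at least 3 NFAT cores. Such a match describes letters and does not show binding.

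Nfatc1 (ENSMUSG00000033016), the endocardial factor, was 0.846, 0.737 and 0.637 RPKM in Scx-/- replicates 1 to 3 and 1.21, 0.808 and 1.08 RPKM in Scx+/+ replicates 1 to 3. Scx-/- replicate 1 lay above Scx+/+ replicate 2, and the other Scx-/- libraries lay below all Scx+/+ libraries. The log2 fold change was -0.42 (standard error 0.36, 95% interval -1.25 to 0.40, adjusted p = 0.967 from limma). The separation of the genotypes depended on the scaling between libraries. After centring on the median of all genes, Nfatc1 ran from 0.645 to 0.751 RPKM in Scx-/- and from 0.841 to 1.19 RPKM in Scx+/+, where 5.37% of all genes were lower without overlap. The ranges were also apart after quantile normalization, at 0.679 to 0.788 RPKM against 0.971 to 1.12 RPKM, where 4.58% of all genes were lower without overlap. After removal of the trend on length and GC content they were 0.733 to 0.756 RPKM and 0.936 to 1.08 RPKM, where 4.62% were. Limma did not call Nfatc1 on these 3 scales, on which it called 3.43%, 3.75% and 3.54% of all genes. None of the 14 endothelial and endocardial markers was called or without overlap as deposited, and after centring on the median of all genes limma called 1, Cdh5, lower, at a log2 fold change of -0.51. Their summed level was 149.5 to 185 RPKM in Scx-/- and 145 to 169 RPKM in Scx+/+, or 151 to 166 RPKM and 159 to 166 RPKM after centring, and their part in the Nfatc1 values was not tested.

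Nfatc3 (ENSMUSG00000031902, chromosome 8 of mm9 from 108582740 to 108654437, plus strand), the most abundant of the 4 factors, was 5.08, 4.10 and 2.98 RPKM in Scx-/- and 4.69, 3.37 and 3.40 RPKM in Scx+/+ replicates 1 to 3. The highest and the lowest library were both Scx-/-. The log2 fold change was 0.07 (95% interval -0.55 to 0.68, adjusted p = 0.992 from limma) and its sign turned when the median of all genes was set to 0. Esrp2, on the other strand, shares 219 nt or 3.53% of its exon length, and a strand for the counting is not given in the sources used here. Nfatc4 (ENSMUSG00000023411, chromosome 14 of mm9 from 56443632 to 56452780, plus strand) was 0.694, 1.00 and 0.400 RPKM in Scx-/- and 1.07, 0.429 and 0.755 RPKM in Scx+/+ replicates 1 to 3, a log2 fold change of -0.09 (95% interval -1.20 to 1.01, adjusted p = 0.996 from limma). Its lowest libraries were Scx-/- replicate 3 and Scx+/+ replicate 2, those that deviated in the same direction over all genes. The SD within a genotype was 43.1% and 42.9% of the mean, the widest of the 9 genes, against a counting error of 6.09% to 11.2%. The log2 fold change of Nfatc4 turned to 0.21 without Scx-/- replicate 3 and to 0.18 without Scx+/+ replicate 1.

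Shares within the NFAT family are free of the scaling between libraries, since every factor is divided by the sum of the 4 in the same library. The sum itself was 4.41 to 6.94 RPKM in Scx-/- and 5.03 to 7.72 RPKM in Scx+/+ and overlapped. The share of Nfatc1 was 12.2%, 12.1% and 14.4% in replicates 1 to 3 of Scx-/-, against 15.7%, 16.1% and 18.3% for Scx+/+, so that the genotypes were apart (exact permutation p = 0.1). Nfatc3 made up 73.2%, 67.4% and 67.6% in Scx-/- and 60.8%, 67.0% and 57.8% in Scx+/+, again apart (exact permutation p = 0.1). Scx+/+ replicate 2, at 67.0%, lay next to the Scx-/- libraries. The share of Nfatc2 overlapped, at 4.05% to 8.93% in Scx-/- and 8.42% to 11.1% in Scx+/+, as did that of Nfatc4, at 9.06% to 16.5% and 8.52% to 13.9%. The shares of one library add up to the whole, so a lower share of 1 factor raises the others by construction. The separations of Nfatc1 and Nfatc3 are therefore not independent. An exact permutation p of 0.1 is the smallest that 3 against 3 allows, and any shares without overlap reach it. How often the shares of other gene families lie apart was not computed, so these shares are a description only.

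**Figure D3:**
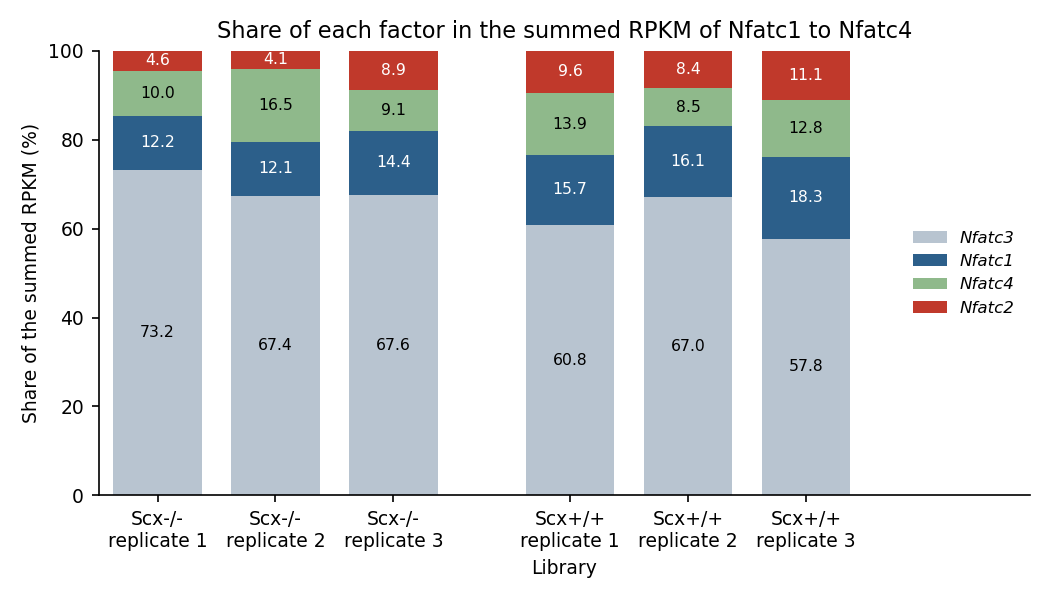
Share of each factor in the summed RPKM of Nfatc1 to Nfatc4, in percent, as 1 stacked bar for each library. Nfatc3 takes 57.8% to 73.2% of every bar, and Nfatc1 takes 12.1% to 14.4% in Scx-/- and 15.7% to 18.3% in Scx+/+.

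Of the calcineurin genes, Ppp3r1 (ENSMUSG00000033953, chromosome 11 of mm9 from 17059266 to 17100378, plus strand) encodes the calcium-binding B subunit. It was 22.3, 20.8 and 21.7 RPKM in Scx-/- replicates 1 to 3 and 19.2, 19.6 and 16.4 RPKM in Scx+/+ replicates 1 to 3. The lowest Scx-/- value was above the highest Scx+/+ value, with means of 21.6 ± 0.741 RPKM and 18.4 ± 1.72 RPKM (SD, n = 3). The log2 fold change was 0.23 (standard error 0.16, 95% interval -0.13 to 0.59, adjusted p = 0.967 from limma), with an exact permutation p of 0.1. After centring on the median of all genes the log2 fold change was 0.12 and the genotypes overlapped, at 20.0 to 21.9 RPKM in Scx-/- and 18.0 to 20.3 RPKM in Scx+/+. After removal of the trend on length and GC content it was 0.055, also with overlap, and after quantile normalization the genotypes were apart, where 4.80% of all genes were higher without overlap. The per-gene test of the study called Ppp3r1 on RPKM, where 3.43% of all genes were called higher, and did not call it on log2 values, at an unadjusted p of 0.0512. Wdr92, on the same strand, shares 185 nt or 5.73% of its exon length. The summed mesenchyme markers were 404 to 561 RPKM in Scx-/- and 332 to 394 RPKM in Scx+/+, without overlap, and like Ppp3r1 they overlapped after centring, at 363 to 558 RPKM and 364 to 408 RPKM. Postn, at 161 to 387 RPKM, made up much of the sum and itself overlapped. Of the 11 markers, 7 had a log2 fold change above 0 and 4 below, with Lum called higher and Snai2 called lower. Their part in the Ppp3r1 values was not tested.

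The catalytic subunits differed by less than the spread between libraries. Ppp3ca (ENSMUSG00000028161, chromosome 3 of mm9 from 136333088 to 136600691, plus strand) was 21.6, 21.8 and 18.8 RPKM in Scx-/- and 21.2, 17.4 and 18.9 RPKM in Scx+/+ replicates 1 to 3, a log2 fold change of 0.12 (95% interval -0.26 to 0.49, adjusted p = 0.969 from limma). Its highest library was 1.26 times its lowest, the narrowest range of the 9 genes. Ppp3cb (ENSMUSG00000021816, chromosome 14 of mm9 from 21318586 to 21365795, minus strand) was 9.11, 9.90 and 9.70 RPKM in Scx-/- and 12.0, 6.78 and 9.79 RPKM in Scx+/+ replicates 1 to 3. The Scx-/- libraries were close together and lay inside the range of the Scx+/+ libraries. The log2 fold change of Ppp3cb was 0.05 (95% interval -0.48 to 0.57, adjusted p = 0.995 from limma) and turned to -0.18 without Scx+/+ replicate 2. Of the summed RPKM of both subunits, Ppp3ca held 65.97% to 70.3% in Scx-/- and 63.9% to 71.9% in Scx+/+. The third catalytic subunit gene Ppp3cc, known from testis, was 4.75, 5.27 and 4.79 RPKM in Scx-/- and 3.34, 5.10 and 2.92 RPKM in Scx+/+ replicates 1 to 3, and overlapped.

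Rcan1 (ENSMUSG00000022951, chromosome 16 of mm9 from 92392198 to 92466391, minus strand), the feedback inhibitor, was 31.8, 29.1 and 36.9 RPKM in Scx-/- and 32.3, 27.7 and 23.2 RPKM in Scx+/+ replicates 1 to 3. The means of 32.6 ± 3.92 and 27.7 ± 4.57 RPKM (SD, n = 3) differed by about the spread within a genotype, and the ranges overlapped. The log2 fold change was 0.24 (standard error 0.18, 95% interval -0.18 to 0.65, adjusted p = 0.967 from limma), and 0.12 without Scx+/+ replicate 3. Rcan2 (ENSMUSG00000039601, chromosome 17 of mm9 from 43938800 to 44176465, plus strand) was 23.6, 21.2 and 33.3 RPKM in Scx-/- and 26.1, 30.6 and 19.4 RPKM in Scx+/+ replicates 1 to 3, a log2 fold change of 0.03 (95% interval -0.50 to 0.56, adjusted p = 0.996 from limma). Its highest libraries were Scx-/- replicate 3 and Scx+/+ replicate 2, which were also the lowest for Nfatc4. Rcan3, the other family member listed, was 1.33 to 1.65 RPKM in Scx-/- and 1.52 to 1.85 RPKM in Scx+/+ and overlapped, its log2 fold change being -0.21. Rcan1 held 52.5% to 57.8% of the summed RPKM of Rcan1 and Rcan2 in Scx-/- and 47.6% to 55.3% in Scx+/+.

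Rcan1 is transcribed from 2 RefSeq starts, of which the internal one is known as the start that calcineurin and NFAT drive, and the table gives their sum. The 250 bases before each start are shown because the motif differs between them, with capitals as above. The windows are chr16:92466415-92466664 and chr16:92400324-92400573 of mm9 on the minus strand.
Rcan1 upstream start: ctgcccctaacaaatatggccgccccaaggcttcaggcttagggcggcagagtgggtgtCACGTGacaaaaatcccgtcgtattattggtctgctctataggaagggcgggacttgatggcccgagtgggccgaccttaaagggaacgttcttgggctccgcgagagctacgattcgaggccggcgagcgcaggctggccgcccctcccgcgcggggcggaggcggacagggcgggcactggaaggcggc
Rcan1 internal start: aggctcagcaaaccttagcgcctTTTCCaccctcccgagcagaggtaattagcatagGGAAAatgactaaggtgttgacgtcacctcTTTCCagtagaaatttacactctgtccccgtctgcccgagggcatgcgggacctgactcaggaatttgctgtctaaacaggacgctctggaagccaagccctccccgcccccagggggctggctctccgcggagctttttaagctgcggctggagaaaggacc
The internal window holds 3 NFAT cores, a count reached by 6.41% of all windows, and no E-box, while the upstream window holds no NFAT core and 1 E-box. The deposited values cannot divide the 23.2 to 36.9 RPKM of Rcan1 between the starts. RefSeq windows were available for 7 of the 9 genes, all but Nfatc1 and Ppp3ca.

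Beyond the 9 genes, 58 genes around calcineurin and NFAT were read from lists, of which 52 were listed in the table. Limma called 1 of them higher in Scx-/- and 0 lower, where 2.82% of all genes were called higher and 1.06% lower, and 0 passed after adjustment. Krit1, a junction protein of the endothelium and the 1 gene called, was 13.7, 12.2 and 12.5 RPKM in Scx-/- and 10.4, 7.68 and 10.2 RPKM in Scx+/+ replicates 1 to 3. The difference was 0.45 on the log2 scale with a standard error of 0.19 and an adjusted p of 0.967 from limma, and 0.34 and no longer called after centring on the median of all genes. After removal of the trend on length and GC content it was 0.36 and called. Heg1, the membrane receptor that binds Krit1, lay the other way at 8.03 ± 0.798 RPKM against 9.71 ± 0.262 RPKM (SD, n = 3), without overlap, with a log2 fold change of -0.28 (adjusted p = 0.967 from limma). After centring on the median of all genes limma called 2 of the 52 genes lower, where it called 1.94% of all genes lower. They were Heg1 and Kdr, a VEGF receptor of the endothelium. Kdr was 14.4 to 23.2 RPKM in Scx-/- and 22.3 to 24.4 RPKM in Scx+/+ and had a centred log2 fold change of -0.44. With the trend on length and GC content removed, limma called neither, at -0.19 for Heg1 and -0.35 for Kdr.

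Genotypes did not overlap for 3 of the 52 genes higher in Scx-/- and for 4 lower, where 7.19% of all genes were higher and 2.31% lower without overlap. Besides Krit1, the higher genes were Calm2 and Calm3, which encode calmodulin, the calcium sensor of calcineurin. Calm3 was 120, 105 and 116 RPKM in Scx-/- and 97.1, 99.1 and 80.4 RPKM in Scx+/+ replicates 1 to 3, and Calm2 was 153, 149.98 and 165 RPKM against 129, 149.65 and 118 RPKM, all but touching. Neither was called. Besides Heg1, the lower genes were Fkbp1a, Dyrk1b and Junb. Fkbp1a, which encodes the immunophilin that delivers the calcineurin inhibitor FK506, was 7.67 to 8.05 RPKM against 8.54 to 9.75 RPKM. Dyrk1b, a kinase of the family that phosphorylates NFAT again, was 0.488 ± 0.0789 RPKM against 0.919 ± 0.342 RPKM (SD, n = 3). Junb, an AP-1 subunit, was 0.404 ± 0.144 RPKM against 0.831 ± 0.246 RPKM (SD, n = 3), and it had been selected by the study from these libraries. Of these 4 genes limma called none as deposited.

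The median log2 fold change of the 52 genes was 0.003, with 27 above 0 and 25 below, beside 0.10 over all genes. Tnfsf11, Tnfrsf11b, Acp5 and Fgf10, known as inducers or targets of NFAT in bone or valve, were not among the genes listed. Nfat5, the family member that calcineurin does not control, was 2.40 to 3.27 RPKM in Scx-/- and 1.75 to 5.17 RPKM in Scx+/+, with the lowest value in Scx+/+ replicate 2.

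**Figure D4:**
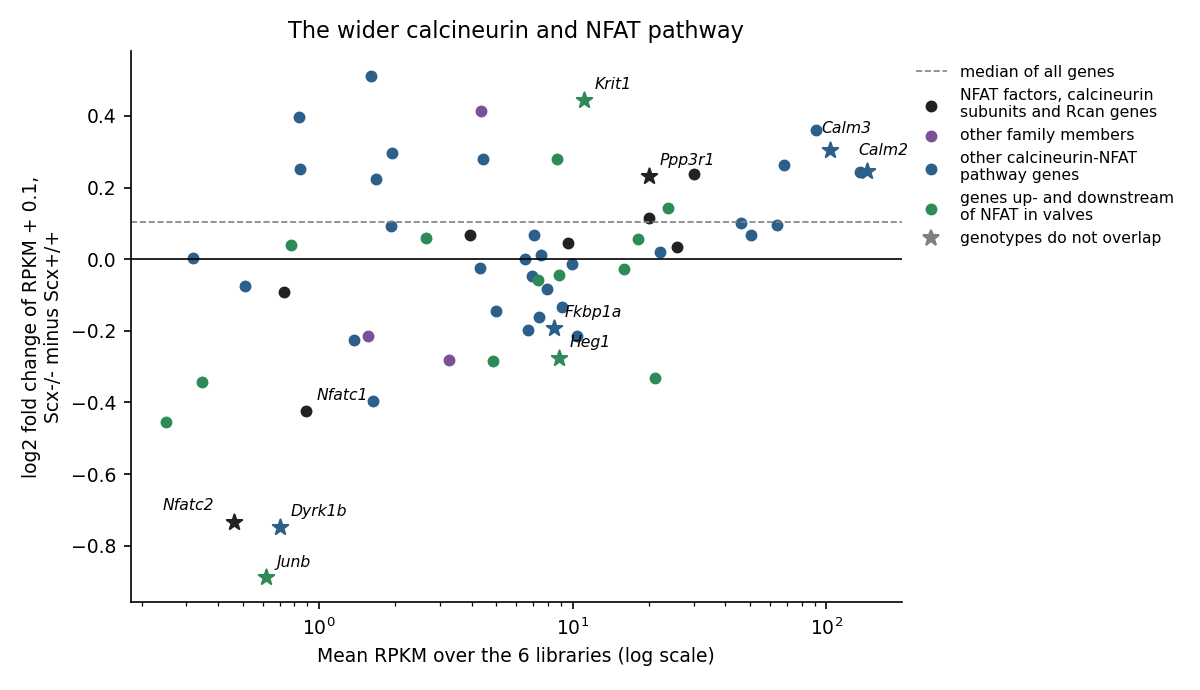
Log2 fold change of RPKM + 0.1 between genotypes against the mean RPKM over the 6 libraries on a log scale, for the 9 genes and the 52 other pathway genes, with colours for the lists and stars where the genotypes do not overlap. The stars low on the left are Nfatc2, Dyrk1b and Junb, and those on the right are the calmodulin genes Calm2 and Calm3.

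For each factor, the 3 genes with the most similar profile were taken from the 13821 other genes that averaged 1 RPKM or more, by the root mean square difference of centred log2 values over the 6 libraries. For Nfatc1 they were Plxna2, a semaphorin receptor, Ppm1l and Chpf, at differences of 0.0456, 0.0488 and 0.0583. For Nfatc2 they were Dot1l, the histone H3K79 methyltransferase, 1110002E22Rik and Camta1, at 0.146, 0.176 and 0.191, less close than for the other factors. For Nfatc3 they were Ergic1, Xrcc1 and Uba1, at 0.0458, 0.0526 and 0.0549, and for Nfatc4 they were Fbxl20, Kctd1 and Ddx19a, at 0.0724, 0.0799 and 0.0891. With 6 libraries and this many genes, close matches occur readily.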

How the data were processed

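RNA-seq libraries from 3 Scx-/- and 3 Scx+/+ embryos were grouped by their titles. The authors aligned reads to mm9 with TopHat 1.4.1, counted reads in Ensembl exons with easyRNASeq and deposited RPKM, without read counts. They kept genes above a read minimum and set faint values to 1 shared floor, found here at 0.0949 RPKM. Identifiers were looked up in GENCODE vM1 on the same assembly (18695 of 18810), which gave exon length and GC content. Depth was solved from RPKM and exon length, and 98.5% to 98.6% of values under 1000 reads then came out whole within 0.1 read. Counting errors cover counting only. No count test was run.

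Genotypes were compared on log2(RPKM + 0.1) by limma 3.58.1 under R 4.3.3, with its mean-variance trend, and p-values were adjusted after Benjamini and Hochberg over 18810 genes. Fold changes on that scale understate those of faint genes. Calls used the threshold of the study, an unadjusted p below 0.05. The labels name separate samples, and the p-values measure the spread between them. Single values were tested by exact permutation. Alternatives were other pseudocounts, a filter at a mean of 1 RPKM, no trend, one-way ANOVA, other scalings, a spline fit on length and GC content subtracted, the replicate number as a block, and libraries left out. On simulated data for this comparison with 18810 genes, limma called 57.5% of genes changed 1.5-fold and 81.0% of those changed 2-fold at an unadjusted p below 0.05. The changed genes were drawn only from those that averaged 1 RPKM or more. The percentages therefore do not apply to Nfatc1, Nfatc2 and Nfatc4, which averaged less.

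The genes and lists were chosen with earlier results of these data known. Named are the 9 genes, pathway genes that were called or without overlap, the listed other family members Nfat5, Ppp3cc and Rcan3, markers given beside a result, and the 3 genes most like each factor. Motifs were searched in RefSeq windows. The windows shown were matched to mm9, and the windows behind the percentages over all windows were not. Other steps ran in Python 3.11.15 (scipy 1.17.1, numpy 2.4.6, matplotlib 3.10.9, pandas 2.3.3). Some genes of the lists are not reported here by name.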

Additional observations from a re-analysis of the deposited data

How the results depend on the processing

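None of the 9 genes was called as deposited, and 4 of the 105 fits of a gene under another setting passed the unadjusted threshold. These were Nfatc2 in limma without the trend and in one-way ANOVA on log2 RPKM, both at a log2 fold change of -0.73, Nfatc2 at -1.06 without Scx-/- replicate 3 and Scx+/+ replicate 2, and Ppp3r1 in one-way ANOVA on RPKM at 0.23. Nfatc1, Nfatc2, Ppp3r1 and Rcan1 kept their sign in every setting run, and the filter at a mean of 1 RPKM left no value for Nfatc1, Nfatc2 and Nfatc4. After centring each library on the median of all genes, the log2 fold changes of Nfatc3, Ppp3cb and Rcan2 turned to -0.042, -0.064 and -0.076. With quantile normalization those of Nfatc3, Ppp3ca, Ppp3cb and Rcan2 turned to -0.00022, -0.011, -0.089 and -0.097. After the length and GC trend was subtracted, with and without the replicate block, Ppp3cb was -0.038 and Rcan2 -0.085. Without both Scx-/- replicate 3 and Scx+/+ replicate 2, Ppp3cb was -0.19 and Rcan2 -0.011. These signs turned around values within 1 standard error of 0 as deposited, and why was not tested. Leaving out single libraries, the log2 fold change ran from -0.58 to -0.31 for Nfatc1, -0.94 to -0.60 for Nfatc2, -0.11 to 0.27 for Nfatc3, -0.40 to 0.21 for Nfatc4, 0.05 to 0.19 for Ppp3ca, -0.18 to 0.23 for Ppp3cb, 0.15 to 0.28 for Ppp3r1, 0.12 to 0.36 for Rcan1 and -0.16 to 0.18 for Rcan2, and none was called. Ppp3ca was lowest without Scx+/+ replicate 2, and Ppp3r1 and Rcan1 without Scx+/+ replicate 3.

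Of all genes, 731 were called, 531 higher and 200 lower in Scx-/-. Higher and lower calls were 281 and 365 after centring, 352 and 353 with quantile normalization, and 299 and 362 after the length and GC trend was subtracted. Lower calls were 132 among genes that averaged 1 RPKM or more. Leaving out single libraries, 539 to 1549 genes were called, 364 to 1081 higher and 153 to 468 lower, the highest counts without Scx+/+ replicate 2. Without Scx-/- replicate 3 alone, 821 genes were called. Without Scx-/- replicate 3 and Scx+/+ replicate 2, chosen after seeing the data, 1587 were called, 1139 higher and 448 lower. The replicate block gave 573 calls, and 485 with 209 higher together with the length and GC trend subtracted. Same-numbered libraries correlated at 0.09, -0.22 and -0.19 in their deviations, which gives no sign of a pairing by number. With 3 libraries per genotype, of which 1 in each deviated in a shared direction, these correlations cannot exclude a weaker pairing. With 175 to 551 reads, counting limits Nfatc1 and Nfatc2 less than the spread between libraries does.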
